A study of Mus musculus with 15 samples.

Results

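The genes examined here are 7 members of the Hedgehog pathway, Gli1, Gli2, Gli3, Ptch1, Hhip, Smo and Sufu, out of 55228 genes listed in each library. They were chosen by symbol, for their place in the pathway that ends at the Gli transcription factors, and each has 1 entry in every library. RNA was sequenced in 15 libraries of 81K1, a mouse embryonic stem cell (ESC) line based on OG2. Smarcb1 is a core member of the BAF complexes, which remodel chromatin. In 81K1 a cassette for an shRNA that targets Smarcb1 sits in the Rosa26 locus behind a doxycycline-dependent promoter. The line goes back to 1 clone (K1), so every group carries the same insertion. All cells grew on gelatine in serum medium with LIF. The knockdown groups (kd) received 1 µg doxycycline per ml of medium each day for 48 h, 72 h or 240 h. The control groups (ctrl) were the same cells without doxycycline, at 48 h and 240 h. Each of the 5 groups has 3 libraries. No ctrl for 72 h, and no line that received doxycycline but lacks the shRNA, was analysed here, so an effect of doxycycline itself cannot be told apart from that of the shRNA.

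Hedgehog ligands are secreted proteins that bind the receptor Ptch1 and thereby release the membrane protein Smo from inhibition, a step that takes place at the primary cilium. Active Smo frees the Gli factors from Sufu, after which Gli2 acts mainly as an activator of transcription and less Gli3 is cut to its repressor form. Gli1, Ptch1 and Hhip are widely used as readouts of the pathway because they are themselves target genes, and Ptch1 and Hhip, which bind ligand, limit the signal that induced them. The pathway patterns the neural tube and the limbs of the embryo.

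Library totals ranged from 11074998 to 14515300 reads, and in all 15 pairs of replicates the reads differed beyond sampling noise (chi-square of 1.30 to 11.3 per degree of freedom). The labels do not say whether the replicates came from separate cultures, so p-values measure the spread between these libraries, which may be technical. Smarcb1 was lower in all 9 kd libraries than in any of the 6 ctrl libraries, with a log2 fold change of -2.50 after 48 h, -2.67 after 72 h and -2.37 after 240 h of doxycycline. All 10 ESC markers (Pou5f1, Sox2, Nanog and others) were detected in every group, with a summed level between 5183 and 7058 RPM (reads of the gene scaled to the library total), so the labelled cell type had its defining markers, which moved with the knockdown as given at the end. Sox2ot overlaps Sox2 (a mean of 8831 reads against 7696) and Gm19553 overlaps Pou5f1 (12310 against 15934), so the reads of these 2 markers are uncertain. A pair of libraries stood apart. 48 h kd replicate 2 had 2.35% mitochondrial reads, the highest share, and a chi-square of 11.3 and 9.14 per degree of freedom against its group mates, where these gave 1.51. 240 h ctrl replicate 3 had the lowest mitochondrial share, 0.469%, and gave 8.89 and 5.02 where the other 2 libraries gave 2.23. Without 240 h ctrl replicate 3 the log2 fold changes at 240 h were 1.27 for Gli1, 0.72 for Ptch1 and -0.72 for Hhip, each called as with all libraries. In bulk RNA, fewer expressing cells and less RNA per cell cannot be told apart.

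Of the members, Gli1 and Ptch1 carried the clearest differences. Changes at 72 h are against 48 h ctrl unless 240 h ctrl is named, so longer culture cannot be told apart from the knockdown there. Gli1 rose at all 3 times, to 1.90-fold at 48 h and 2.54-fold at 240 h of its control, and to 2.25-fold of 48 h ctrl at 72 h. Ptch1 rose at 72 h and 240 h, to 1.86-fold and 1.73-fold, and Hhip, which belongs to the same class of target genes, fell at these times. Gli2, Gli3, Smo and Sufu were not called in any comparison of knockdown with control. A gene was called where the limma adjusted p-value was under 0.05 and the absolute log2 fold change above 0.58, on log2(RPM + 0.1). The values of the members in each library are shown first.

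**Figure D1:**
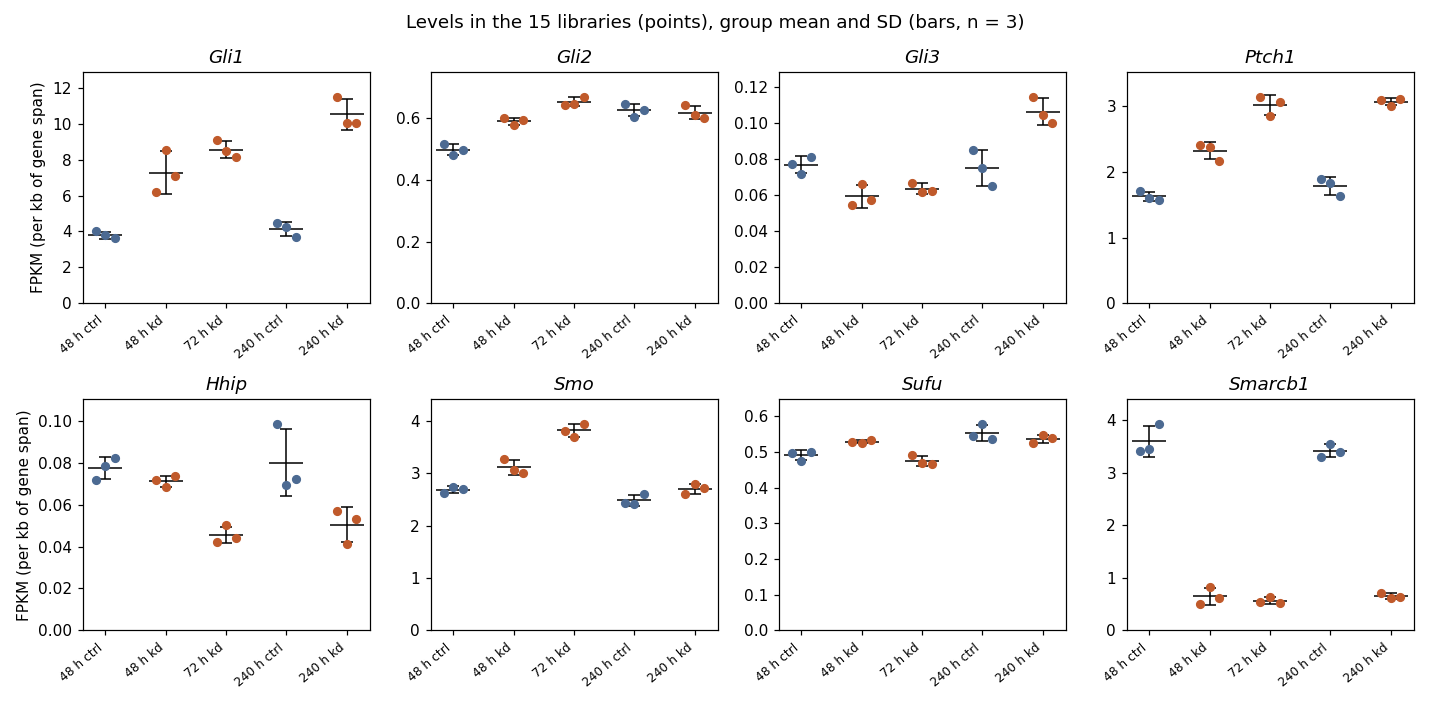
Deposited FPKM per kb of gene span (y axis, from 0) of the 7 members and of Smarcb1 in the 5 groups (x axis). Points are single libraries (blue ctrl, orange kd) and black bars the group mean and SD (n = 3). Gli1 and Ptch1 lie higher in all 9 kd libraries than in any of the 6 ctrl libraries, and Hhip lies lowest in 72 h kd and 240 h kd.

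Ptch1, the receptor (ENSMUSG00000021466.12, chr13:63508328-63573598, minus strand, mm10), had 1.71, 1.6 and 1.58 FPKM in 48 h ctrl and 1.90, 1.82 and 1.63 FPKM in 240 h ctrl. The 48 h kd libraries had 2.41, 2.38 and 2.17 FPKM, and the 72 h kd libraries 3.15, 2.86 and 3.06 FPKM. At 240 h kd it had 3.10, 3.01 and 3.11 FPKM. Each of the 9 kd libraries lay above each of the 6 ctrl libraries, and the 72 h and 240 h kd groups overlapped each other. The ctrl means were 1.63 ± 0.0703 FPKM for 48 h and 1.78 ± 0.140 for 240 h, and the kd means 2.32 ± 0.129, 3.02 ± 0.151 and 3.07 ± 0.0537 for 48 h, 72 h and 240 h (± SD, 3 libraries each). At 48 h the log2 fold change of 0.51 (SE of 0.06, limma adjusted p = 4.17e-05) was under the fold threshold. It was 0.89 at 72 h (SE of 0.04, adjusted p = 2.09e-14) and 0.79 at 240 h (SE of 0.05, adjusted p = 2.29e-09). Between 1156 and 2853 reads per library stand behind these values.

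Hhip, a membrane protein that binds Hedgehog ligands and withholds them from Ptch1 (ENSMUSG00000064325.4, chr8:79965851-80058006, minus strand), moved the other way at low levels. It had 91, 80 and 86 reads in 48 h ctrl and 76, 74 and 75 reads in 48 h kd. At 72 h kd it had 50, 57 and 54 reads. At 240 h it had 113, 79 and 85 reads in ctrl and 69, 55 and 67 reads in kd. In FPKM, which takes account of library size, all 6 libraries of the 2 later kd groups lay below every other library, and 48 h kd overlapped its control. The 48 h ctrl mean of 0.0776 ± 0.00525 FPKM stood against 0.0712 ± 0.00253 for 48 h kd and 0.0455 ± 0.00403 for 72 h kd, and the 240 h ctrl mean of 0.0801 ± 0.0161 against 0.0504 ± 0.00825 for 240 h kd (± SD, 3 libraries each). On the log2 scale the kd less ctrl difference was -0.12 at 48 h (SE of 0.13, limma adjusted p = 0.534), -0.76 at 72 h (SE of 0.14, adjusted p = 8.20e-05) and -0.65 at 240 h (SE of 0.17, adjusted p = 0.00410). The fall at 240 h rests on 2 libraries for its call: the change was -0.49 without 240 h ctrl replicate 1 (adjusted p = 0.0267) and -0.51 without 240 h kd replicate 2 (adjusted p = 0.0274), both under the fold threshold. With a pseudocount of 1 it was -0.56, again under the threshold.

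The promoters of these oppositely moving target genes are shown because both genes are known to respond to Gli factors. Each window holds 250 bases before and 50 after a RefSeq transcript start (GRCm38.p6, minus strand, 5′ to 3′), with every CpG in capitals. The Ptch1 window, chr13:63565686-63565985, belongs to a start 7863 bases inside the gene span, and the Hhip window is chr8:80057959-80058258.
Ptch1: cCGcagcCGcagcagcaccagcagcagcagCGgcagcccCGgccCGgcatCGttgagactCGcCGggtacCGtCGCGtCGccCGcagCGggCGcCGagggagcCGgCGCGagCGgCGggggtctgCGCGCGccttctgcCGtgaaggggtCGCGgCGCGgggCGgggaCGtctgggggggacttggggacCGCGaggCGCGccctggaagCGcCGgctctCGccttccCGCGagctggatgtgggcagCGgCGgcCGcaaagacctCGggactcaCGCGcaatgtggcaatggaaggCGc
Hhip: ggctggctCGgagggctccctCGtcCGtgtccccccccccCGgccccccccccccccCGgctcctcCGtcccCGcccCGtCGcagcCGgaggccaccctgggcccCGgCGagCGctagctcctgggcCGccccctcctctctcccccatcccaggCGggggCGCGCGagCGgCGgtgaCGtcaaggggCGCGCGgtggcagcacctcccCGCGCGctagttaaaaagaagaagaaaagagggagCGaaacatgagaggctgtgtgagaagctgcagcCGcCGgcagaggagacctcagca
The Ptch1 window has 47 CpG and the Hhip window 30, where the median over 32851 RefSeq promoter windows was 7.0. The 6 members with an entry in the RefSeq table had 12 to 47 CpG; Gli1 has no entry there. The Gli consensus GACCACCCA, searched on both strands, was found in 0 of the 6 member windows and in 0 of 15 windows of other target genes. It occurred in 83 of all 32851 windows (0.253%). No match says only that these letters are not in the window.

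Smo, the membrane protein that passes the signal on (ENSMUSG00000001761.7, chr6:29735503-29761365, plus strand), had 2.62, 2.75 and 2.7 FPKM in 48 h ctrl. It had 3.27, 3.07 and 3.00 FPKM in 48 h kd and 3.82, 3.70 and 3.95 FPKM in 72 h kd. At 240 h it had 2.44, 2.41 and 2.60 FPKM in ctrl and 2.61, 2.80 and 2.71 FPKM in kd. The 72 h kd libraries were the highest of all 15, and in each comparison the kd libraries lay above their control. On the log2 scale Smo differed by 0.21 at 48 h (SE of 0.06, limma adjusted p = 0.0149), 0.51 at 72 h (SE of 0.05, adjusted p = 1.04e-09) and 0.12 at 240 h (SE of 0.05, adjusted p = 0.0742), under the fold threshold each time. Against 240 h ctrl in place of 48 h ctrl, the 72 h difference was 0.62 (adjusted p = 2.01e-08), past the threshold.

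Sufu, the cytoplasmic protein that holds Gli factors in check (ENSMUSG00000025231.17, chr19:46396896-46488804, plus strand), differed from the control of each comparison by at most 0.11 on the log2 scale. It had 0.497, 0.475 and 0.5 FPKM in 48 h ctrl, 0.528, 0.525 and 0.534 in 48 h kd and 0.491, 0.468 and 0.465 in 72 h kd. At 240 h it had 0.546, 0.579 and 0.537 FPKM in ctrl and 0.524, 0.547 and 0.539 in kd. The 48 h kd libraries lay above their control, and the groups overlapped in the 72 h and 240 h comparisons. The log2 differences were 0.11, -0.05 and -0.05 at 48 h, 72 h and 240 h, with 95% confidence intervals of -0.02 to 0.24, -0.16 to 0.07 and -0.16 to 0.07. Against 240 h ctrl the 72 h difference was -0.22 (limma adjusted p = 0.00280), under the fold threshold.

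Gli1, the Gli factor that is made in response to the signal and acts as an activator (ENSMUSG00000025407.7, chr10:127329882-127341974, minus strand), had 4.0, 3.77 and 3.62 FPKM in 48 h ctrl and 4.47, 4.26 and 3.72 FPKM in 240 h ctrl. The 48 h kd libraries had 6.17, 8.54 and 7.11 FPKM, and the 72 h kd libraries 9.08, 8.47 and 8.14 FPKM. At 240 h kd it had 11.5, 10.0 and 10.0 FPKM. All 9 kd libraries lay above all 6 ctrl libraries, and the 240 h kd libraries were the highest of all. The ctrl means were 3.80 ± 0.192 FPKM for 48 h and 4.15 ± 0.388 for 240 h, and the kd means 7.27 ± 1.19, 8.56 ± 0.476 and 10.5 ± 0.851 for 48 h, 72 h and 240 h (± SD, 3 libraries each). Knockdown over control gave a log2 fold change of 0.93 at 48 h (SE of 0.10, limma adjusted p = 2.21e-05), 1.17 at 72 h (SE of 0.05, adjusted p = 3.04e-15) and 1.34 at 240 h (SE of 0.07, adjusted p = 6.29e-11). The highest 48 h kd value came from replicate 2, and without that library the 48 h change was 0.80 (adjusted p = 7.24e-10). Among all genes tested, 98.2%, 97.1% and 97.2% had a lower log2 fold change than Gli1 at 48 h, 72 h and 240 h.

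The reads of Gli1 are not all its own for certain. The antisense gene Gm47200 (plus strand) covers 9584 bases of the 12093-base Gli1 span, Arhgap9 covers 62 bases, and the sources used here do not state that counting used strand. Gm47200 had 243 to 952 reads per library and rose with Gli1, with log2 fold changes of 0.95 (48 h), 1.16 (72 h) and 1.25 (240 h). Reads in the shared stretch may therefore have been counted for both genes. When all reads of Gm47200 and Arhgap9 were taken away from Gli1, an alternative chosen after seeing the data, 191 to 298 reads were left in the 48 h ctrl libraries and 338 to 530 in 48 h kd. In 72 h kd 552 to 646 reads were left, and 214 to 257 in 240 h ctrl against 734 to 789 in 240 h kd. This difference is the least number of Gli1 reads that neither gene can share, since Gm47200 also has reads outside the shared stretch, and at 48 h and 72 h it lay in or below the range of all Gli1 reads in 48 h ctrl (495 to 663). Its log2 fold change is not that of the reads of Gli1 alone. The difference rose by 0.95 at 48 h (limma adjusted p = 0.000254), 1.26 at 72 h and 1.53 at 240 h on the log2 scale, so the direction and the call at each time were as with all reads. Genes overlapping the other members had a mean of at most 5.07 reads, and none overlaps Sufu.

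**Figure D2:**
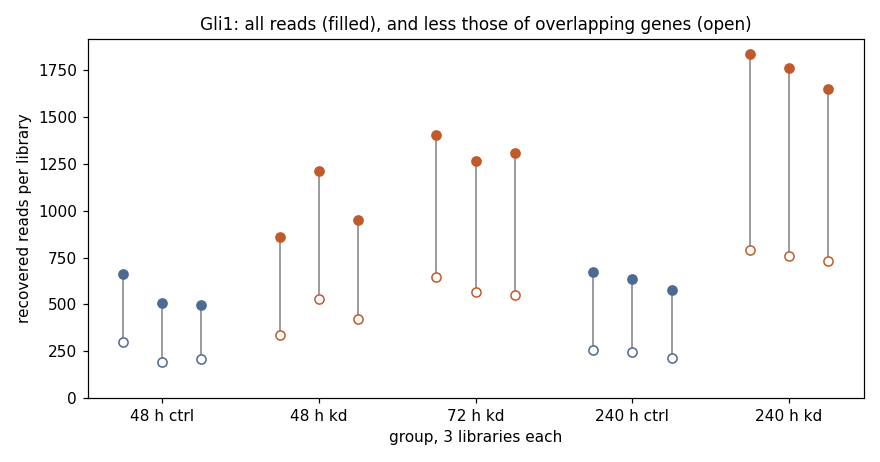
Recovered Gli1 reads per library (y axis, from 0) in the 5 groups (x axis, 3 libraries each, not scaled to library size). Filled points are all reads in the Gli1 span and open points those left after taking away the reads of Gm47200 and Arhgap9. With either count the kd libraries lie above their control, and the highest values are the 1653 to 1836 reads of 240 h kd.

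Gli2, the main activator among the Gli factors (ENSMUSG00000048402.14, chr1:118834132-119053619, minus strand), had 0.515, 0.481 and 0.497 FPKM in 48 h ctrl. It had 0.599, 0.578 and 0.593 FPKM in 48 h kd and 0.644, 0.647 and 0.670 FPKM in 72 h kd. At 240 h it had 0.645, 0.606 and 0.627 FPKM in ctrl and 0.642, 0.612 and 0.600 in kd. The 48 h ctrl libraries were the lowest of all 15, and the groups overlapped at 240 h. The log2 difference was 0.25 at 48 h (limma adjusted p = 0.00324), 0.39 at 72 h (adjusted p = 1.72e-08) and -0.02 at 240 h (adjusted p = 0.777), none past the fold threshold. Its level also differed between the controls, by 0.33 from 48 h to 240 h ctrl (adjusted p = 0.000454). Against 240 h ctrl the 72 h difference was 0.06 (adjusted p = 0.227).

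Gli3, the main repressor among the Gli factors (ENSMUSG00000021318.15, chr13:15463235-15730026, plus strand), was measured by 167 to 405 reads per library. It had 0.0776, 0.0720 and 0.0814 FPKM in 48 h ctrl, 0.0543, 0.0665 and 0.0575 in 48 h kd and 0.0671, 0.0619 and 0.0621 in 72 h kd. At 240 h it had 0.0853, 0.0752 and 0.0653 FPKM in ctrl and 0.115, 0.105 and 0.1 in kd. The kd libraries lay below their control at 48 h and 72 h and above it at 240 h. The log2 difference was -0.37 at 48 h (SE of 0.10, limma adjusted p = 0.0143), -0.27 at 72 h (SE of 0.08, adjusted p = 0.00607) and 0.51 at 240 h (SE of 0.09, adjusted p = 0.000269), each under the fold threshold. Without 240 h ctrl replicate 1 the 240 h difference was 0.60, past the threshold.

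**Figure D3:**
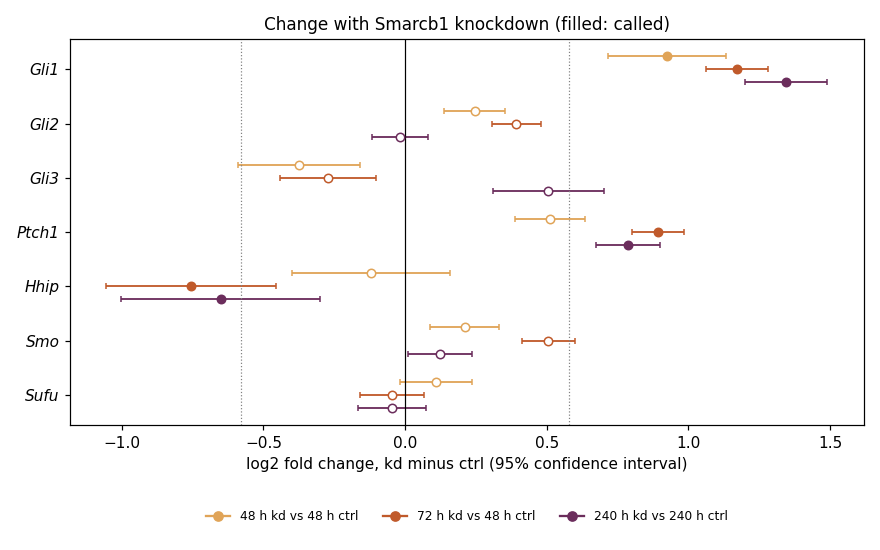
Log2 fold change of kd over ctrl (x axis) for the 7 members (y axis) at 48 h, 72 h and 240 h, with 95% confidence intervals from limma (3 against 3 libraries). Filled points were called, and dotted lines mark the fold threshold of 0.58. Gli1 is right of the threshold at all 3 times, Ptch1 at 72 h and 240 h, and Gli3 changes side between 72 h and 240 h.

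Counts of called members were read against all genes tested. At 48 h 1 of the 7 members was called, Gli1, which was higher, where 9.23% of 16108 genes were called (4.32% higher, 4.90% lower). At 72 h 3 of the 7 were called, 2 higher and 1 lower, where 22.3% of 16146 genes were called (12.3% higher, 10.0% lower). At 240 h it was again 3 of the 7, 2 higher and 1 lower, against 17.7% of 16633 genes (9.76% higher, 7.95% lower). The genes were Gli1, Ptch1 and Hhip both times. The median log2 fold change of the members was 0.21, 0.39 and 0.12 at 48 h, 72 h and 240 h, and that of all genes tested 0.01, 0.02 and 0.01. The 48 h and 72 h comparisons share the 48 h ctrl libraries. With 7 members, 1 gene more or fewer moves the share greatly, and nothing particular to the group is read from these counts.

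The comparisons without a knockdown contrast or without a control show when the levels moved. Between 48 h and 240 h ctrl 0 of the 7 members were called, where 1.36% of 16215 genes were, and limma voom called 0 as well. An unadjusted limma p-value under 0.05, which 28.3% of all genes had, was found for 3 of the 7: Gli2 (above), Ptch1 (0.0424, adjusted p = 0.159) and Sufu (0.00918, adjusted p = 0.0625). With the replicate number as a block in limma, the adjusted p was 0.0158 for Ptch1 and 0.0142 for Sufu. Their differences of 0.13 and 0.17 were under the fold threshold. From 48 h to 72 h of knockdown only Hhip was called among the members, with a log2 fold change of -0.64 (limma adjusted p = 0.00336), against 12.9% of 16104 genes. In the same step Ptch1 differed by 0.38 (adjusted p = 0.000177), Smo by 0.30 (adjusted p = 0.000822) and Gli1 by 0.25 (adjusted p = 0.0479), all under the fold threshold. The Gli1 step was 0.13 without 48 h kd replicate 1, 0.37 without replicate 2 of that group and 0.31 without overlapping reads, and its adjusted p ranged from 3.37e-06 to 0.178 over the alternatives. From 72 h to 240 h of knockdown only Gli3 was called among the members, higher by 0.74 (adjusted p = 1.85e-09), against 25.1% of 16562 genes. Smo differed by -0.50 (adjusted p = 1.11e-10) and Gli1 by 0.30 (adjusted p = 5.82e-06) in that step, while Ptch1 differed by 0.02 (95% confidence interval -0.05 to 0.10).

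Whether the knockdown effect itself differed between 240 h and 48 h, each with its own control, was tested by an interaction term over 12 libraries. Of the 7 members 1 was called, Gli3, where 10.5% of 16403 genes were. The Gli3 effect was higher by 0.88 at 240 h (SE of 0.14, limma adjusted p = 0.000213). Gli1 (0.42, adjusted p = 0.0331), Ptch1 (0.28, adjusted p = 0.0214) and Gli2 (-0.26, adjusted p = 0.00689) differed between the times by less than the fold threshold, and under 1 or more alternatives each of these 3 had an adjusted p above 0.05, up to 0.114, 0.0632 and 0.112. For Hhip the difference was -0.53 (SE of 0.22, adjusted p = 0.0927), so a change of its effect with time was not shown against the matched controls.

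Ordered by group mean in RPM, Gli1 ran from 45.9 in 48 h ctrl and 50.1 in 240 h ctrl to 88.0 in 48 h kd, 104 in 72 h kd and 127 in 240 h kd. The 2 control groups overlapped, as did 48 h and 72 h kd. Ptch1 had the same order of groups, from 106 to 201 RPM, with overlap between the 2 controls and between 72 h and 240 h kd. Hhip was lowest in 72 h kd (4.2 RPM) and 240 h kd (4.65), which overlapped, followed by 48 h kd (6.56), 48 h ctrl (7.15) and 240 h ctrl (7.38), of which neighbours overlapped. Levels can be compared between genes only per length, and the order depends on which length is used. Per kb of gene span, as deposited, Gli1 was the highest member in 48 h ctrl, at 3.80 FPKM with all reads in its span, but with the reads of overlapping genes taken away it was at 1.58, below Smo (2.69) and near Ptch1 (1.63). Per kb of exon, Gli2 (15.9 RPM per kb) and Smo (12.4) came before Gli1 (9.19), Ptch1 (7.49), Sufu (5.86), Gli3 (2.14) and Hhip (0.788). The reads divided here are those of the whole span, introns included. The span is 32.0 times the exon length for Gli2, 27.8 times for Gli3, 4.60 times for Smo and 2.42 times for Gli1. Reads from introns may therefore make part of this order. In 240 h kd Gli1 was at 25.5 per kb of exon with all reads and at 11.1 without those of overlapping genes, where Gli2 was at 19.7, Ptch1 at 14.1 and Smo at 12.5, so its rank depends on reads that are not certainly its own.

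For each member, the genes whose log2 levels ran most alike over the 15 libraries were named, among the 12574 genes that averaged 50 or more reads. These are descriptions over libraries that share groups and depth. For Ptch1 they were Prob1 (Pearson r = 0.991), Nf2 (0.984) and Scube3 (0.983), which encodes a secreted protein of the family that helps release Hedgehog ligand. For Gli1 they were the glucocorticoid receptor gene Nr3c1 (0.978), Oplah (0.976) and Zcwpw1 (0.974). For Smo they were B2m (0.990), the light chain of MHC class I, Ctdsp2 (0.988) and Patl2 (0.987). For Hhip they were Parp9 (0.939), Vash2 (0.929) and Adamtsl1 (0.928), and for Gli3 the integrin gene Itga3 (0.949), Bbx (0.943) and Acp6 (0.941). Gli2 was most like Macf1 (0.943), Mcm3ap (0.926) and Peak1os (0.925). The closest genes to Sufu, Smpd4 (0.889), Ttc37 (0.869) and Ercc4 (0.866), had the lowest values.

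The rest of the pathway was followed in 62 further genes, of which 15 were called in 1 or more knockdown comparisons. At 48 h 0 of the 50 tested were called higher and 3 lower by limma, where 14 were higher and 8 lower at an unadjusted p-value under 0.05, a cut that 37.9% of all genes passed at 48 h, 65.3% at 72 h and 51.8% at 240 h, and limma voom called 0 higher. At 72 h 6 of 51 were higher and 6 lower, and at 240 h 3 of 50 were higher and 6 lower. Their median log2 fold change was 0.06, 0.07 and -0.02 at the 3 times. They stand against the shares over all genes given above, and nothing particular to these genes is read from them.

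The ligands were scarce. Shh had 0 or 1 reads in every library, Ihh 4 to 12 and Dhh 4 to 24. Dhh had 5 to 15 reads per 48 h ctrl library and 14 to 24 per 72 h kd library, a rise of 0.94 (limma adjusted p = 0.0161), which missed the threshold without 48 h ctrl replicate 2 (0.66, adjusted p = 0.0964) or 72 h kd replicate 1 (0.76, adjusted p = 0.0928). Its span overlaps Rhebl1, which had a mean of 462 reads, so the origin of these reads is uncertain, and in 240 h kd Dhh had 7 to 12 reads against 4 to 14 in ctrl. Floor plate and notochord markers, the cells that make Shh in the embryo, summed to at most 1.82 RPM.

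Among genes that process and release ligand, Scube3 rose by 0.93 at 72 h (limma adjusted p = 7.83e-11) and 1.02 at 240 h (adjusted p = 4.77e-09). The 72 h kd libraries held 421 to 480 reads of it, all above the 195 to 269 of 48 h ctrl. Scube1, of the same family, rose at 72 h by 0.85 (adjusted p = 0.0156), where the ctrl libraries held 8 to 20 reads and the kd libraries 19 to 30. Its adjusted p was 0.0735 without 48 h ctrl replicate 2 (0.68), 0.0538 without 48 h ctrl replicate 3 (0.74) and 0.101 without 72 h kd replicate 1 (0.67). Hhat, the acyltransferase that attaches palmitate to the ligand, fell at 48 h by 0.79 on the log2 scale (adjusted p = 0.0274), from 21 to 37 reads to 14 to 17. This call was lost without 48 h ctrl replicate 1 (-0.71, adjusted p = 0.0998) or replicate 2 (-0.70, adjusted p = 0.119), and without 48 h kd replicate 1 (-0.77, adjusted p = 0.0533) or replicate 3 (-0.75, adjusted p = 0.0742).

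Of the co-receptors, Gas1 rose at 72 h by 0.61 (limma adjusted p = 0.000713) and differed by -0.06 at 48 h and 0.53 at 240 h. Without 48 h ctrl replicate 1 the 72 h change was 0.49 (adjusted p = 0.00535), under the threshold. Cdon differed by 0.02, 0.09 and 0.10 at 48 h, 72 h and 240 h, and Boc by -0.33, 0.15 and -0.43, none of them called. Lrp2, which completes this list, differed by 0.31, -0.50 and 0.32 and was not called either. The 95% confidence intervals of Cdon lay between -0.19 and 0.29, and those of Boc between -0.89 and 0.51.

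Of 19 cytoplasmic and ciliary signal transducers, 1 was called lower at 48 h and 2 each at 72 h and 240 h, and 0 were called higher by limma or limma voom. At an unadjusted limma p-value under 0.05, 4, 5 and 2 of them were higher and 3, 7 and 9 lower. Over all genes tested 4.90%, 10.0% and 7.95% were called lower at these times and 4.32%, 12.3% and 9.76% higher. The unadjusted cut was passed by 37.9%, 65.3% and 51.8%, and nothing particular to these 19 genes is read from the counts. Arrb1, a beta-arrestin that takes part in moving Smo into the cilium, fell at all 3 times, by 0.77, 0.93 and 0.63 on the log2 scale (limma adjusted p = 5.99e-06, 7.28e-12 and 5.64e-07). Evc, part of a ciliary complex that passes the signal on from Smo, fell at 72 h by 0.86 (adjusted p = 2.00e-12). Evc overlaps Crmp1, which had a mean of 893 reads against 778 for Evc, so its reads are uncertain. Tulp3, which brings receptors such as Gpr161 into the cilium, fell at 240 h by 0.59 (adjusted p = 1.49e-07), at the edge of the fold threshold, and was under it without 240 h ctrl replicate 3 or 240 h kd replicate 1 (-0.57 each). Of 12 genes of ciliary transport and assembly, among them Ift88 and Kif3a, 0 were called in any of the 3 knockdown comparisons by limma or limma voom. At an unadjusted limma p-value under 0.05, 5, 6 and 5 were higher and 1, 2 and 4 lower. Over all genes 9.23%, 22.3% and 17.7% were called and 37.9%, 65.3% and 51.8% passed the unadjusted cut, and nothing particular to the list is read from these counts. Their median log2 fold changes were 0.11, 0.15 and 0.02.

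Of 19 other target genes, 10 had enough reads to be tested in each knockdown comparison, and these moved in both directions. At 48 h 0 were called higher and 1 lower by limma (3 higher and 3 lower at an unadjusted p-value under 0.05, and 0 higher by limma voom). At 72 h 2 were higher and 4 lower, and at 240 h again 2 higher and 4 lower, where of all genes 12.3% were higher and 10.0% lower at 72 h and 9.76% higher and 7.95% lower at 240 h. With 10 genes tested, nothing particular to the list is read from these counts. Jag2, a Notch ligand, rose at 72 h by 0.60 (limma adjusted p = 3.14e-10; 0.56 without 72 h kd replicate 2, under the threshold) and at 240 h by 0.81 (adjusted p = 2.77e-09). Snai1, a repressor of epithelial genes, rose at 240 h by 1.22 (adjusted p = 9.60e-05), from 18 to 22 reads in ctrl to 44 to 64 in kd. The cyclin gene Ccnd2 fell at all 3 times, by 0.69, 2.20 and 0.81 on the log2 scale, with a mean of 0.575 ± 0.0962 FPKM for 48 h ctrl and 0.121 ± 0.0111 for 72 h kd (± SD, 3 libraries). Its 48 h change was -0.56 without 48 h ctrl replicate 2, under the threshold. The related Ccnd1 fell at 72 h by 1.24 (adjusted p = 4.15e-18) and at 240 h by 1.18 (adjusted p = 1.09e-11), though LTO1 overlaps it with a mean of 1122 reads. Bmp4, a signalling protein, fell at 72 h by 0.94 and at 240 h by 0.89, and the survival gene Bcl2 fell at 72 h by 0.79 (adjusted p = 0.00969), from 18 to 31 reads to 13 to 17. Without 48 h ctrl replicate 2 the change of Bcl2 was -0.66 (adjusted p = 0.0614), and against 240 h ctrl it was -0.40 (adjusted p = 0.167). Sfrp1, an inhibitor of Wnt signalling, was called in opposite directions: it rose at 72 h by 1.02 (adjusted p = 5.26e-17) and fell at 240 h by 0.75 (adjusted p = 1.12e-09).

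**Figure D4:**
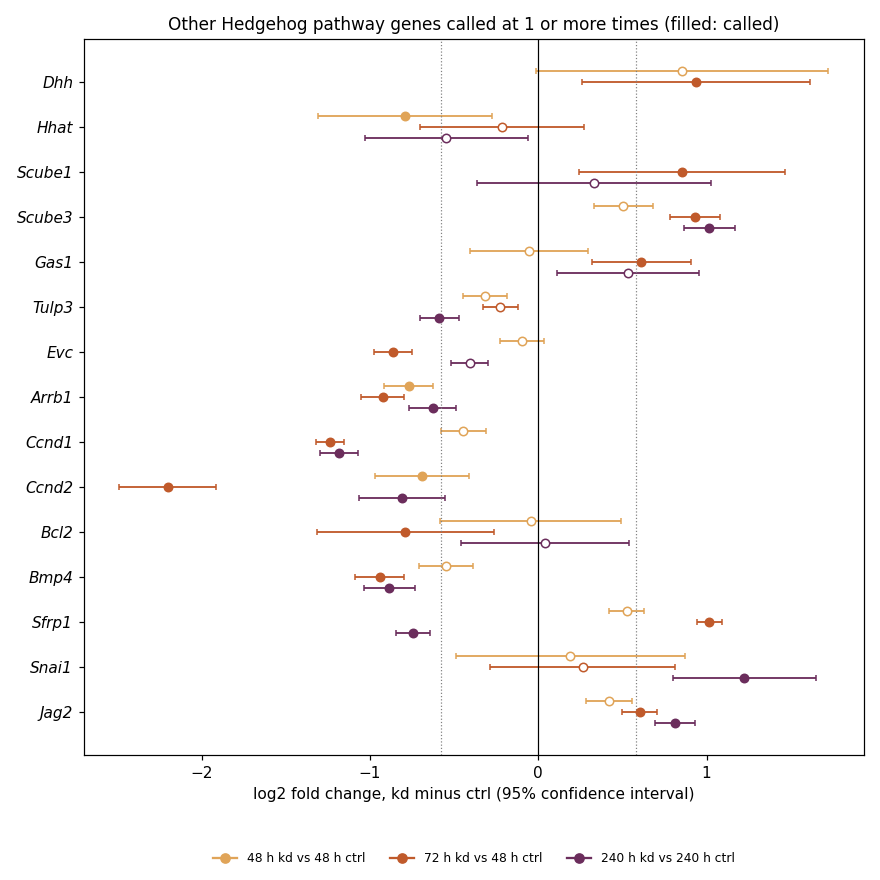
Log2 fold change of kd over ctrl (x axis) with 95% confidence intervals from limma for the 15 other pathway genes called at 1 or more times (y axis). Filled points were called, dotted lines mark the fold threshold of 0.58, and a time is left out where the gene had too few reads. Scube3 and Jag2 lie right of 0 and Arrb1, Ccnd1, Ccnd2 and Bmp4 left of 0 at all 3 times, and Sfrp1 changes side at 240 h.

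Markers of ESC and of other cell types moved with the knockdown too. The 10 ESC markers summed to 6207 to 6526 RPM per library of 48 h ctrl, against 5764 to 6506 after 48 h and 6847 to 7058 after 72 h of doxycycline. At 72 h 1 marker was called higher, Dppa5a (861 to 1767 RPM), and 1 lower, Klf4, and without Dppa5a the sum was 5384 to 5625 RPM for 48 h ctrl and 5118 to 5287 for 72 h kd. At 240 h the sum was 5755 to 6258 RPM in ctrl and 5183 to 5255 in kd, with 3 of the 10 called lower (Klf4, Esrrb and Zfp42) and 0 higher by limma or limma voom, where 3 were higher and 6 lower at an unadjusted p-value under 0.05. Klf4, a pluripotency factor, fell at all 3 times, by 0.87, 0.76 and 1.21 on the log2 scale.

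The 6 neural progenitor markers summed to 58.1 to 65.5 RPM per library of 48 h ctrl, 75.2 to 85.3 after 48 h and 95.5 to 104 after 72 h of doxycycline. At 240 h the sum was 58.7 to 61.9 RPM in ctrl and 125 to 128 in kd, and Olig2 was at 0 in 72 h kd. At 48 h and 72 h 1 marker was called higher and 1 lower, and the median log2 fold change of those tested was -0.44 and -0.21. The higher sum at these times came from Sox1, which rose by 1.31, 1.75 and 1.56 on the log2 scale at the 3 times. Sox1ot overlaps Sox1 and had a mean of 660.6 reads against 648.67, so the reads of Sox1 are uncertain. Pax6 fell by 1.45 at 48 h and 1.74 at 72 h, and Nes differed by -0.44 and -0.50, under the fold threshold. At 240 h 2 of 4 tested were higher, Sox1 and Nes (0.65), and 0 lower by limma, by limma voom or at an unadjusted limma p-value under 0.05. Over all genes tested 4.32%, 12.3% and 9.76% were called higher at 48 h, 72 h and 240 h and 4.90%, 10.0% and 7.95% lower. The unadjusted cut was passed by 51.8% at 240 h, and with so few markers nothing particular to the list is read from the counts.

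The 6 fibroblast markers summed to 5.63 to 9.09 RPM in the other 4 groups and 19.4 to 23.1 in 240 h kd. At 48 h and 72 h 1 of the 2 tested was higher and 1 lower, and at 240 h 2 of 3 were higher, among them Col1a1 by 1.79. The remaining marker tested at 240 h was lower at an unadjusted limma p-value under 0.05 and was not called. Between the controls 1 of the 2 tested was called higher in 240 h ctrl. The 5 primitive endoderm markers summed to 7.76 to 8.74 RPM per library of 48 h ctrl, 5.38 to 6.68 after 48 h and 5.59 to 7.38 after 72 h of doxycycline. At both times 1 of 4 tested was called, Sox7, lower with 8 to 12 reads at 48 h and 2 to 6 at 72 h against 34 to 40 in ctrl, and the median log2 fold change was -0.29 and 0.21. At 240 h they summed to 10.4 to 11.1 RPM in ctrl and 12.6 to 14 RPM in kd, with 2 of 4 tested called higher and 1 lower. The 5 mesoderm markers summed to 5.34 to 8.12 over all groups, with 1 called higher at each time and 1 lower at 48 h and at 240 h. The counts of these lists stand against the shares over all genes given above, and nothing particular to a list is read from them. The part of these markers' cells in the levels of Gli1, Ptch1 and the other members was not tested.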

How the data were processed

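RNA-seq of 15 libraries (5 groups of 3, grouped and numbered by their titles) was analysed. The authors aligned single-end reads to mm10 (GRCm38) with STAR 2.7.0c, counted reads per gene and used DESeq2 1.30.0 in R 4.0.3; the deposited values are FPKM, 1 per gene and library, over the whole gene span. The annotation used for counting is not given in the sources used here (the study's methods name a GENCODE release for assigning ChIP-seq peaks), and 53297 genes (96.5%) matched GENCODE M21 by position and symbol. FPKM times span in kb gave reads scaled to the library total (RPM), and all values were whole reads (tolerance 0.001). Reads summed over genes exceeded library totals by 7.38% to 8.34%, so some were counted for more than 1 gene. Counting error depends on the reads given beside low values, and there were no molecular identifiers.

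The members and gene lists were chosen with earlier results of these data known. limma 3.58.1 in R 4.3.3 (lmFit, eBayes with trend, two-sided) was run on log2(RPM + 0.1) where a gene averaged 10 or more reads over the libraries compared, with Benjamini-Hochberg adjustment over all genes tested. Every adjusted p-value is from limma. The other pathway genes named are those called in a knockdown comparison, the ligands, Cdon, Boc and Gas1, with Lrp2 and Mks1 added after their values were seen; 1 further gene is not reported here. For likeness, the 3 highest Pearson r per member were named, without predicted or overlapping genes. Genes named as examples of a list, and Prob1 (which overlaps a predicted gene), carry no test of that list. With 3 against 3 libraries an exact permutation test cannot go below p = 0.1, so none was used. Alternatives were other pseudocounts, read minimums, scalings and thresholds, log2 FPKM, limma voom, a fit of all libraries, the replicate number as a block, another control and each library left out. The tests were run on simulated counts with the same dispersion for all genes and no outlying library. That check does not cover the spread between the libraries seen here. Python 3.11.15, numpy 2.4.6, pandas 2.3.3 and matplotlib 3.10.9 were used.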

Additional observations from a re-analysis of the deposited data

Results flagged for a closer look

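For 4 pathway genes the difference between the effect of the knockdown at 240 h and at 48 h passed both thresholds by an interaction term over 12 libraries (limma). They are 1 of 7 members and 3 of 51 other pathway genes tested, where 10.5% of all genes passed. The value is the log2 effect at 240 h less that at 48 h. For Gli3 it was 0.8805 (SE of 0.14, adjusted p = 0.000213), with effects of 0.51 and -0.37 and adjusted p-values of 1.55e-05 to 0.00114 over the alternatives. For Sfrp1 it was -1.2731 (SE of 0.06, adjusted p = 2.98e-10), with effects of -0.75 and 0.53, and for Ccnd1 -0.7377 (SE of 0.09, adjusted p = 6.12e-06), with effects of -1.18 and -0.44. Mks1, a gene of ciliary transport and assembly that was named after its values were seen, gave -0.6144 (SE of 0.11, adjusted p = 0.000523), with effects of -0.52 and 0.09. A further 12 pathway genes had an adjusted p under 0.05 and a difference under the fold threshold, of which 3 are the members Gli1, Ptch1 and Gli2. Over all genes tested 20.4% had an adjusted p under 0.05 at any fold change, a share that includes the 10.5% past both thresholds. Nothing particular to the pathway is read from these counts. The cause was not tested. Groups of 3 libraries were too small for a test of single outlying libraries.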

How the results depend on the processing

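Gli1 kept its rise and its call at all 3 times under every alternative run, with log2 fold changes of 0.80 to 1.04 at 48 h, 1.05 to 1.26 at 72 h and 1.27 to 1.53 at 240 h. The values of 1.26 and 1.53 belong to the difference left after taking away overlapping reads, which is not the change of Gli1 alone. Leaving out 1 library in turn gave at most 1.21 at 72 h and 1.40 at 240 h. Ptch1 kept its rise and call under every alternative at 72 h (0.76 to 0.93) and 240 h (0.72 to 0.83). Hhip at 240 h ranged from -0.74 to -0.49 and lost its call with a pseudocount of 1 and without either of 2 libraries. With no fold threshold the number of members called was 5 at 48 h (26.1% of all genes), 6 at 72 h (61.9%), 4 at 240 h (45.2%), 1 between the controls (12.7%), 6 from 48 h to 72 h kd (42.9%), 4 from 72 h to 240 h kd (65.0%) and 4 for the interaction (20.4%). From 48 h to 72 h kd it was 0 with a pseudocount of 1. On log2(FPKM + 0.1) with a minimum of 0.5 FPKM it was 0 for 48 h to 72 h kd, 0 for 72 h to 240 h kd and 0 for the interaction, since 5 of the 7 members were tested there, without Hhip and Gli3. Leaving out each library in turn gave 2 to 3 members called at 240 h, where Gli3 reached 0.60 without 240 h ctrl replicate 1, and the same count as with all libraries in the other comparisons.

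Changes of sign concerned differences near 0. Leaving out 1 library in turn gave -0.0463 to 0.0037 for Gli2 at 240 h, -0.127 to 0.121 for Hhip and -0.134 to 0.0575 for Gli3 between the controls, and -0.0155 to 0.0549 for Ptch1 from 72 h to 240 h kd. Quantile normalization gave -0.0098 for the last, and Gli1 without overlapping reads -0.00094 between the controls. The cause was not tested.

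With the replicate block, Gli1 changed by 0.93 at 48 h (limma adjusted p = 4.78e-05), and no call of a member changed. Deviations of same-numbered libraries correlated at -0.374 to 0.354 over 18 pairs. Pairs with unlike numbers were not set beside them, so whether the numbers pair the libraries was not settled. Between the controls the block raised the number of all genes called from 221 to 333. Calls of the other pathway genes held in 401 repeats and ended in 28, which concerned Hhat, Dhh, Scube1, Gas1, Bcl2, Jag2, Tulp3 and Ccnd2; a pseudocount of 1 did so for Hhat (-0.54), Dhh (0.51), Scube1 (0.51), Gas1 (0.53), Bcl2 (-0.52) and Tulp3 (-0.58). Counting error is wide for genes with few reads, such as the ligands, Scube1, Bcl2, Snai1 and Hhat.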
